A study of Homo sapiens with 20 samples.

Results

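The genes described here are 36 cyclins, cyclin-dependent kinases (CDKs), CDK inhibitors and close regulators of CDK activity. They were chosen by name, but with earlier results of these data already known. Of the 36 genes, 35 were measured, through 81 probe sets whose annotation names exactly 1 of them. There were 41091 such probe sets for 19775 genes in all. Each gene is read from its brightest probe set, averaged over the 20 arrays, and the others served as a check. CDKN2C, an inhibitor of CDK4 and CDK6, had no probe set of its own in the annotation used and is not analysed here. The 35 genes fall into 5 G1 cyclins (CCND1, CCND2, CCND3, CCNE1, CCNE2), 4 cyclins of S phase and mitosis (CCNA2, CCNB1, CCNB2, CCNF), 3 other cyclins (CCNG1, CCNG2, CCNH), and 6 CDKs (CDK1, CDK2, CDK4, CDK5, CDK6, CDK7). The rest are 3 inhibitors of the CIP/KIP family (CDKN1A, CDKN1B, CDKN1C), 3 of the INK4 family (CDKN2A, CDKN2B, CDKN2D), 4 phosphatases that act on CDKs (CDKN3, CDC25A, CDC25B, CDC25C), 2 kinases that place inhibitory phosphates on CDKs (WEE1, PKMYT1), 2 small CDK-binding subunits (CKS1B, CKS2) and 3 pocket proteins (RB1, RBL1, RBL2).

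CDKs drive the cell cycle once bound to a cyclin, and their activity is held back by inhibitor proteins and by inhibitory phosphates that WEE1 and PKMYT1 add and CDC25 phosphatases remove. D cyclins with CDK4 and CDK6, and E cyclins with CDK2, phosphorylate the pocket proteins, which releases E2F factors that switch on S phase genes, and A and B cyclins with CDK1 carry the cell through mitosis. Many of these transcripts are made only in cycling cells, and in androgen-dependent prostate cancer cells androgen is known to act on passage through G1.

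RNA was measured on Affymetrix 3′ arrays in LNCaP, an androgen-responsive human prostate cancer line, and in its castration-resistant derivative C42B. C42B cells were transfected for 6 h with siRNA against the histone demethylase LSD1 (siLSD1) or with the control siRNA labelled siNTC and then held 96 h in RPMI with 10% charcoal-stripped serum, which is low in steroids (3 arrays each). LNCaP cells received siLSD1 or siNTC at 50 nM and stayed 96 h in 10% fetal bovine serum, with RNA of 2 wells pooled per replicate (3 arrays each). For the test of androgen, C42B cells were first kept 72 h in 10% charcoal-stripped serum and then 16 h with 100 nM dihydrotestosterone (DHT) or its ethanol vehicle (4 arrays each). All values are log2 of the deposited intensity, genes with a limma adjusted p under 0.05 over all 19775 passed the test, and a gene is called higher or lower only where it passed. Each system is 1 established line and siLSD1 is a single label, so lower LSD1 and other effects of the siRNA used cannot be told apart. Not every label says whether replicates were independent cultures, so the p-values reflect only how these samples spread, which may be technical. In bulk RNA, fewer cells in the cycle and less of a transcript per cell cannot be told apart.

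KDM1A, which encodes LSD1, was lower in every siLSD1 array, at 7.80 to 8.03 against 10.21 to 10.36 in C42B and 7.25 to 7.40 against 9.95 to 10.23 in LNCaP. Median intensities were 78.4 to 81.2 in the C42B siRNA arrays, 63.3 to 65.1 in the LNCaP arrays and 84.1 to 86.1 in the androgen arrays, so levels were compared only within an experiment. RNA integrity was read from actin probe sets as 3′ minus 5′ log2 intensity: in C42B siLSD1 arrays gave 1.17 to 1.31 and siNTC arrays 1.13 to 1.19, in LNCaP 0.93 to 1.09 and 0.82 to 0.98, and DHT 0.91 to 1.16 and vehicle 0.90 to 1.12. Its part in the results was not tested. Of 10 luminal epithelial markers 8 had a probe set of their own, all bright (a group mean of at least 6), and 3, 3 and 5 were higher and 0, 0 and 3 lower in the C42B siRNA, LNCaP and androgen comparisons. Of 12 markers of stroma, endothelium and leukocytes, 7, 7 and 5 were dim in both groups, in that order, and 0, 2 and 1 passed, all lower. Of 5 basal epithelial markers 4 had a probe set of their own, of which 0, 1 and 1 passed, all higher.

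More of these genes were lower than higher with siLSD1 in both lines, and in larger number and size in LNCaP. In C42B, 16 of 35 passed (18.0% of all genes did). Of these, 4 were higher (11.4%, against 8.66% of all genes) and 12 lower (34.3%, against 9.39%), with a median log2 fold change of −0.12 (−0.017 over all genes). In LNCaP 23 passed (25.9% of all genes). There, 3 were higher (8.57%, against 13.4%) and 20 lower (57.1%, against 12.5%), with a median of −0.31 (0.011 over all genes). With DHT in C42B 13 passed (32.7% of all genes), of which 6 were higher (17.1%, against 13.4%) and 7 lower (7 of 35, against 19.4%), with a median of −0.026 (0.013 over all genes), so these shares lay near those of all genes. When each androgen array was centred on its median, which moved the median change of all genes from 0.013 to 0.081, the share of higher genes among those passing with DHT went from 40.9% to 62.0%, and 9 of the listed genes were higher and 5 lower. In each comparison the arrays of the groups did not overlap for any member that passed. The share among all genes that passed was not taken, so whether the members differ from other genes in this cannot be said. Among members that did not pass, arrays were also apart for 7 of 19 in the C42B siRNA comparison (22.2% of all genes not passing). The same held for 7 of 12 such members in LNCaP (19.2%) and 4 of 22 with DHT (6.23%). All 12 genes lower in C42B were also lower in LNCaP, and CCNG2 and CDKN1A were higher in both lines.

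**Figure D1:**
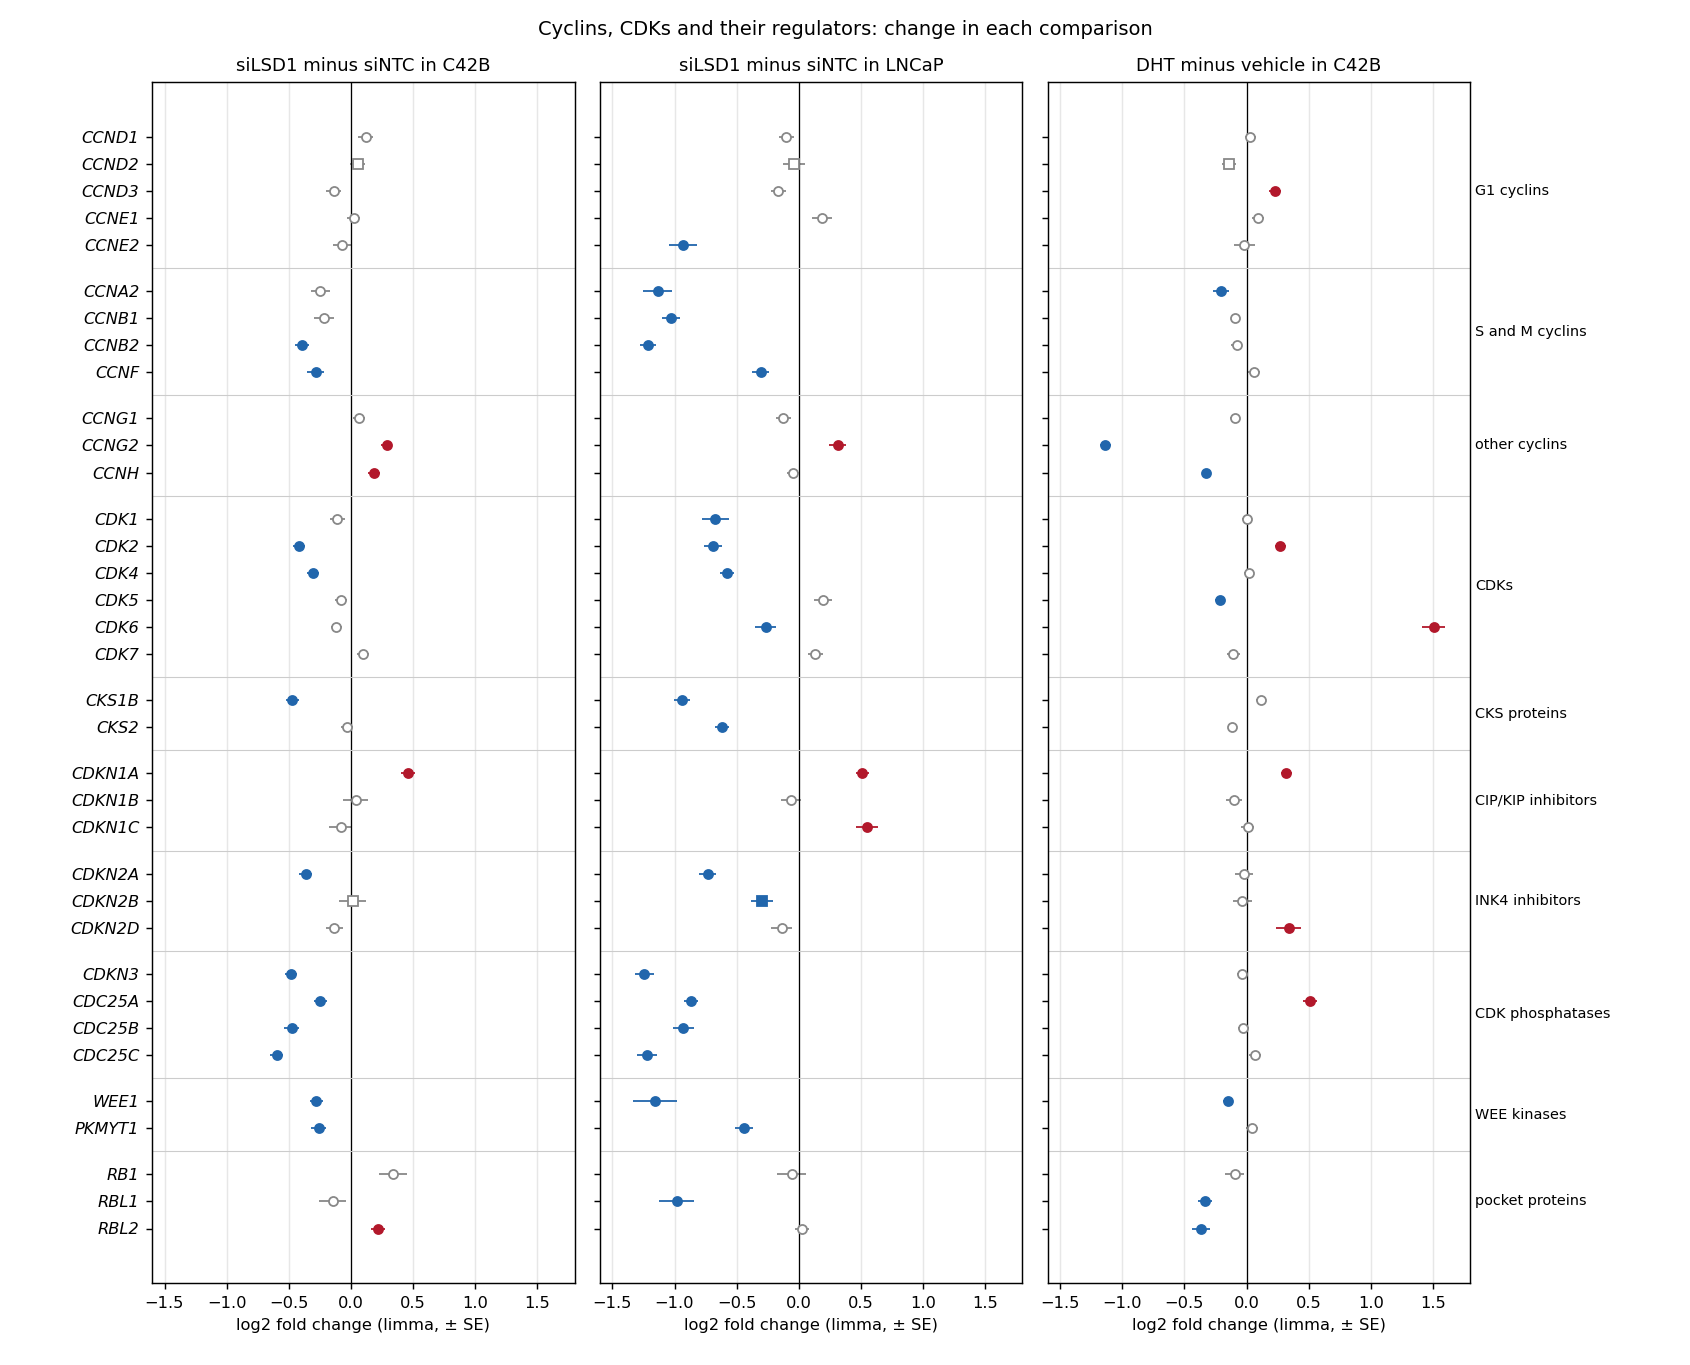
Log2 fold change ± SE (limma) of the 35 genes, ordered by role, in the siLSD1 comparisons of C42B and LNCaP and with DHT in C42B; filled points passed at an adjusted p under 0.05, open points did not, and squares are dim in both groups. The phosphatases and WEE kinases lie below 0 in both siRNA panels, where all 4 and both were lower, while CDK6 (1.50) and CCNG2 (−1.14) stand farthest from 0 with DHT.

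Promoter sequences are shown for the 6 genes, among those described array by array and with a single start in the table, that passed in the same direction in the most comparisons, ties being broken by the summed size of those log2 fold changes (which left out CDC25A and CCNG2), because cell cycle genes are known to share short promoter motifs. The sequences are the 250 bases before each gene's start in RefSeq's GRCh38.p14 annotation, outside the transcript that begins there, written 5′ to 3′ on the gene's strand. Capitals mark matches, on either strand, to a CCAAT box (CCAAT), a CHR motif (TTTGAA or TTCGAA) or an E2F-like motif (TTTGGCG or TTTCCCG or TTTCGCG or TTTGCCG). The table's start of CDKN1A lies 2251 bases downstream of the gene's annotated start in RefSeq, so its window is inside the gene, while the other 5 starts are the annotated ones.
CDKN1A, chr6:36678464-36678713, strand +: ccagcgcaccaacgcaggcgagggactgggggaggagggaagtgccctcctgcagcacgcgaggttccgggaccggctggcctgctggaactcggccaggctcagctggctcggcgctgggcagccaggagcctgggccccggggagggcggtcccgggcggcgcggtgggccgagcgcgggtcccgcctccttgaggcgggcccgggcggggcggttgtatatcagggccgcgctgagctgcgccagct
CDKN3, chr14:54396757-54397006, strand +: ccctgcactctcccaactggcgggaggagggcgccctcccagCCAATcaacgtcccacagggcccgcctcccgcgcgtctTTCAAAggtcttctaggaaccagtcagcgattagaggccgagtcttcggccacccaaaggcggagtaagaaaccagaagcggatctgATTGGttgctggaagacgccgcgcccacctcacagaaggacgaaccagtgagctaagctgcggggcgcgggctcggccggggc
CCNB2, chr15:59104896-59105145, strand +: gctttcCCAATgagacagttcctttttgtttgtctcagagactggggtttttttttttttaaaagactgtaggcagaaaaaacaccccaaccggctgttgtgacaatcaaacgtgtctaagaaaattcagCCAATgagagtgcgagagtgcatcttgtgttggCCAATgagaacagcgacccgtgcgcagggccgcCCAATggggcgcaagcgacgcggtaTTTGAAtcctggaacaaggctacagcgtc
CKS1B, chr1:154974431-154974680, strand +: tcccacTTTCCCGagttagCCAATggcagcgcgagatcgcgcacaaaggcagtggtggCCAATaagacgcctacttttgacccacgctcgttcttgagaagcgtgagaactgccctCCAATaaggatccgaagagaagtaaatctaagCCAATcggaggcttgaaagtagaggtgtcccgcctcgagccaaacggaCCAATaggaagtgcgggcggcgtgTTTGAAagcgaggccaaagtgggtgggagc
CCNA2, chr4:121823884-121824133, strand -: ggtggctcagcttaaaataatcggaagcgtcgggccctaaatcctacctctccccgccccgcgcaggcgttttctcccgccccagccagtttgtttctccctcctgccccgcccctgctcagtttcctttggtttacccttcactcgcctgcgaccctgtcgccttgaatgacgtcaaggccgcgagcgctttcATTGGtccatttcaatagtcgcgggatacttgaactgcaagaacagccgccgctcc
RBL1, chr20:37095998-37096247, strand -: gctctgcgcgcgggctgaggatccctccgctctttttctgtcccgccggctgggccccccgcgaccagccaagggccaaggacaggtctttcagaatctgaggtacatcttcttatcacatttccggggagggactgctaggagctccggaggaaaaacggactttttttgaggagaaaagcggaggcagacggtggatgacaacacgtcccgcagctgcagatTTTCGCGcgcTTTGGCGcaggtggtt
Of these 6 windows 4 held a CCAAT box, 3 a CHR motif (CDKN3, CCNB2, CKS1B) and 2 an E2F-like motif (CKS1B, RBL1). CCNB2 had 4 CCAAT matches and a CHR motif 29 bases before the start, CKS1B had 5 and a CHR motif 30 bases before it, and CDKN1A held none of the motifs. In windows of 300 bases, from 250 before to 50 after a start, 34.6% of the 35116 promoters in the table held a CCAAT box, 16.4% a CHR motif and 8.67% an E2F-like motif. The table had an entry for 28 members. Counted by gene over all its starts, a CHR motif was in 8 of the 16 genes lower in LNCaP and in 1 of the 12 others, against 19.5% of all genes in the table. E2F-like motifs were in 6 and 2 of them (10.4% of all genes), and CCAAT boxes in 11 and 5 (39.7% of all genes). A match is a string of letters and not evidence of a bound factor.

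The C42B siRNA arrays address what siLSD1 does to these transcripts in steroid-depleted medium. All 4 CDK phosphatases and both WEE kinases fell, and among the cyclins of S phase and mitosis CCNB2 and CCNF fell. CDK2, CDK4, CKS1B and CDKN2A were also lower. The 4 genes that rose were the CDK inhibitor CDKN1A, the cyclins CCNG2 and CCNH, and the pocket protein RBL2. None of the 5 G1 cyclins passed.

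CDC25C, which removes inhibitory phosphates from CDK1 at entry into mitosis, read 8.50, 8.54 and 8.49 in the siLSD1 arrays and 9.07, 9.06 and 9.18 in the siNTC arrays. The groups did not overlap, and CDC25C fell by 33.9% (log2 fold change −0.60 ± 0.054, limma adjusted p = 7.0e-04). CDKN3, a phosphatase that acts on CDK2, read 11.41, 11.46 and 11.41 against 11.90, 11.92 and 11.90. All siLSD1 arrays were low and close together for this gene, with a log2 fold change of −0.48 ± 0.046, adjusted p = 8.7e-04. CDC25B, which helps to start the activation of CDK1, read 9.78, 9.78 and 9.72 against 10.34, 10.19 and 10.18. Its siNTC replicate 1 was the highest array, every siLSD1 array lay below all siNTC arrays, and the log2 fold change was −0.48 ± 0.060, adjusted p = 0.0022. CDC25A, which acts earlier and also on CDK2, was lower by a smaller amount (log2 fold change −0.25 ± 0.054, adjusted p = 0.019). WEE1 (−0.28 ± 0.055, adjusted p = 0.013) and PKMYT1 (−0.26 ± 0.063, adjusted p = 0.028), the kinases that oppose the CDC25 enzymes, were lower as well.

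CKS1B, the subunit through which the ubiquitin ligase adaptor SKP2 recognises CDKN1B, read 11.26, 11.37 and 11.31 with siLSD1 and 11.76, 11.82 and 11.77 with siNTC. Every siLSD1 array was lower, and the log2 fold change was −0.47 ± 0.052, adjusted p = 0.0015. CDK2, the partner of cyclins E and A, read 10.33, 10.41 and 10.39 against 10.83, 10.79 and 10.77. Here too the groups were apart, with a log2 fold change of −0.42 ± 0.050, adjusted p = 0.0019. CDK4, a partner of the D cyclins, was lower (−0.31 ± 0.047, adjusted p = 0.0049), and so was the INK4 inhibitor gene CDKN2A (−0.37 ± 0.053, adjusted p = 0.0040). CCNB2, a B cyclin (−0.39 ± 0.054, adjusted p = 0.0031), and CCNF, the substrate receptor of a ubiquitin ligase (−0.28 ± 0.069, adjusted p = 0.028), were the cyclins that fell. CCNA2 (−0.24, adjusted p = 0.072, 95% interval −0.43 to −0.062), CCNB1 (−0.22, 0.10, −0.40 to −0.034) and CDK1 (−0.11, 0.25, −0.24 to 0.026) did not pass.

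CDKN1A, the CIP/KIP inhibitor known as a p53 target, read 11.25, 11.10 and 11.18 with siLSD1 and 10.75, 10.67 and 10.74 with siNTC. All siLSD1 arrays were high, and CDKN1A rose by 0.46 ± 0.058 on the log2 scale (adjusted p = 0.0023). CCNG2, an unconventional cyclin known to be made in arrested cells, read 12.38, 12.41 and 12.43 against 12.14, 12.12 and 12.10. Its arrays were close within each group and apart between groups, with a log2 fold change of 0.29 ± 0.047, adjusted p = 0.0061. RBL2, the pocket protein of the repressive DREAM complex in resting cells, read 10.97, 11.00 and 11.10 against 10.81, 10.84 and 10.76. The lowest siLSD1 array lay above the highest siNTC array, and the log2 fold change was 0.22 ± 0.055, adjusted p = 0.031. CCNH, which with CDK7 forms the kinase that activates other CDKs, read 12.01, 12.02 and 12.02 against 11.82, 11.79 and 11.88. It too separated the groups, by 0.19 ± 0.049 (adjusted p = 0.037). RB1 (0.34, adjusted p = 0.079), CDKN1B (0.038, adjusted p = 0.84) and CDKN1C (−0.083, adjusted p = 0.59) did not pass.

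Of the 16 calls in C42B, 11 held whichever array was left out, and CCNH lost its call with any array left out (adjusted p 0.051 to 0.12). When 1 array was left out, CCNF passed only without siLSD1 replicate 2 (otherwise 0.055 to 0.095), RBL2 and PKMYT1 passed only without siLSD1 replicate 1 (otherwise 0.067 to 0.11 and 0.067 to 0.098), and CDC25A did not pass without siLSD1 replicate 3 (0.069), siNTC replicate 1 (0.056) or siNTC replicate 2 (0.068). CCNA2 passed without siLSD1 replicate 2 (−0.32, adjusted p = 0.042), CCNB1 without siNTC replicate 3 (−0.29, adjusted p = 0.048) and RB1 without siLSD1 replicate 1 (0.46, adjusted p = 0.010). The G1 cyclin CCND3 also passed without siLSD1 replicate 1 (−0.19, adjusted p = 0.046).

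In LNCaP, kept in full serum, the roles that fell in C42B fell again, with more members. All 4 cyclins of S phase and mitosis, all 4 phosphatases, both WEE kinases and both CKS subunits were lower with siLSD1, and 4 of 6 CDKs. CCNE2 was the G1 cyclin that fell and RBL1 the pocket protein. CDKN1C, CDKN1A and CCNG2 were higher.

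CDKN3 read 9.51, 9.75 and 9.75 with siLSD1 and 10.90, 10.96 and 10.88 with siNTC. The lowest siNTC array was over 1 unit of log2 above the highest siLSD1 array, and CDKN3, whose promoter holds a CHR motif in the sequence above, fell by 57.7% (log2 fold change −1.24 ± 0.077, limma adjusted p = 2.3e-05). CDC25C read 7.33, 7.56 and 7.61 against 8.68, 8.77 and 8.72. Replicate 1 was the lowest of the siLSD1 arrays, the groups stood apart, and the log2 fold change was −1.22 ± 0.081, adjusted p = 2.7e-05. CCNB2, the B cyclin with a CHR motif and 4 CCAAT matches in its promoter, read 9.50, 9.69 and 9.64 against 10.80, 10.85 and 10.82. It was lower in each siLSD1 array than in any siNTC array and fell by 56.9% (log2 fold change −1.21 ± 0.066, adjusted p = 1.4e-05). The mean of its 3 probe sets gave −0.58 in LNCaP and −0.19 in C42B, and it passed in both.

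WEE1 read 9.32, 9.89 and 9.81 with siLSD1 and 10.52, 11.01 and 10.96 with siNTC. Replicate 1 was the lowest array in both groups, the groups did not overlap, and the log2 fold change was −1.16 ± 0.17, adjusted p = 0.0016, with a larger SE than other members. CCNA2, the cyclin of S phase and early mitosis, read 8.80, 9.07 and 9.20 against 9.99, 10.32 and 10.17. No siLSD1 array reached the siNTC arrays, and the log2 fold change was −1.14 ± 0.12, adjusted p = 2.4e-04. CCNB1, the other B cyclin, fell by a like amount (−1.03 ± 0.073, adjusted p = 3.8e-05), and its kinase partner CDK1 fell by 0.67 ± 0.11 (adjusted p = 0.0022). CDK2 (−0.69 ± 0.072, adjusted p = 2.5e-04) and CDK4 (−0.58 ± 0.058, adjusted p = 2.1e-04) were lower too. CDK6 passed (adjusted p = 0.048) with a dim mean with siLSD1, so its change is only at least −0.029 counted from 6. It lost its call when any array but siLSD1 replicate 2 was left out (adjusted p 0.065 to 0.16).

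CKS1B (−0.94 ± 0.063, adjusted p = 2.9e-05), CDC25B (−0.93 ± 0.085, adjusted p = 1.3e-04), CDC25A (−0.87 ± 0.055, adjusted p = 2.4e-05), CDKN2A (−0.73 ± 0.069, adjusted p = 1.5e-04), CKS2, the paralogue of CKS1B (−0.62 ± 0.059, adjusted p = 1.5e-04), PKMYT1 (−0.44 ± 0.072, adjusted p = 0.0025) and CCNF (−0.31 ± 0.066, adjusted p = 0.0095) completed the bright falls with CCNE2 and RBL1, described with the differences between lines. CDKN2B also passed but was dim in both groups, so no fold is given. Without siLSD1 replicate 1 or 3 or siNTC replicate 2 or 3 its adjusted p was 0.092 to 0.12.

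CDKN1C, the CIP/KIP inhibitor of development and differentiation, read 7.89, 7.81 and 7.85 with siLSD1 and 7.50, 7.28 and 7.13 with siNTC. The siNTC arrays were lower and more spread, no array overlapped, and CDKN1C rose by 46.3% (log2 fold change 0.55 ± 0.092, adjusted p = 0.0028). The mean of its probe sets gave a smaller rise of 0.28, which passed. CDKN1A read 11.52, 11.52 and 11.46 against 11.01, 10.96 and 11.00. All siLSD1 arrays were higher, as in C42B, with a log2 fold change of 0.51 ± 0.054, adjusted p = 2.7e-04. CCNG2 read 11.56, 11.62 and 11.74 against 11.28, 11.28 and 11.42. Its groups were apart, the log2 fold change was 0.31 ± 0.071, adjusted p = 0.013, and without siLSD1 replicate 3 it was 0.26 and did not pass (adjusted p = 0.053). CDKN1B (−0.062, adjusted p = 0.65) and RB1 (−0.057, adjusted p = 0.78) did not pass in LNCaP either.

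**Figure D2:**
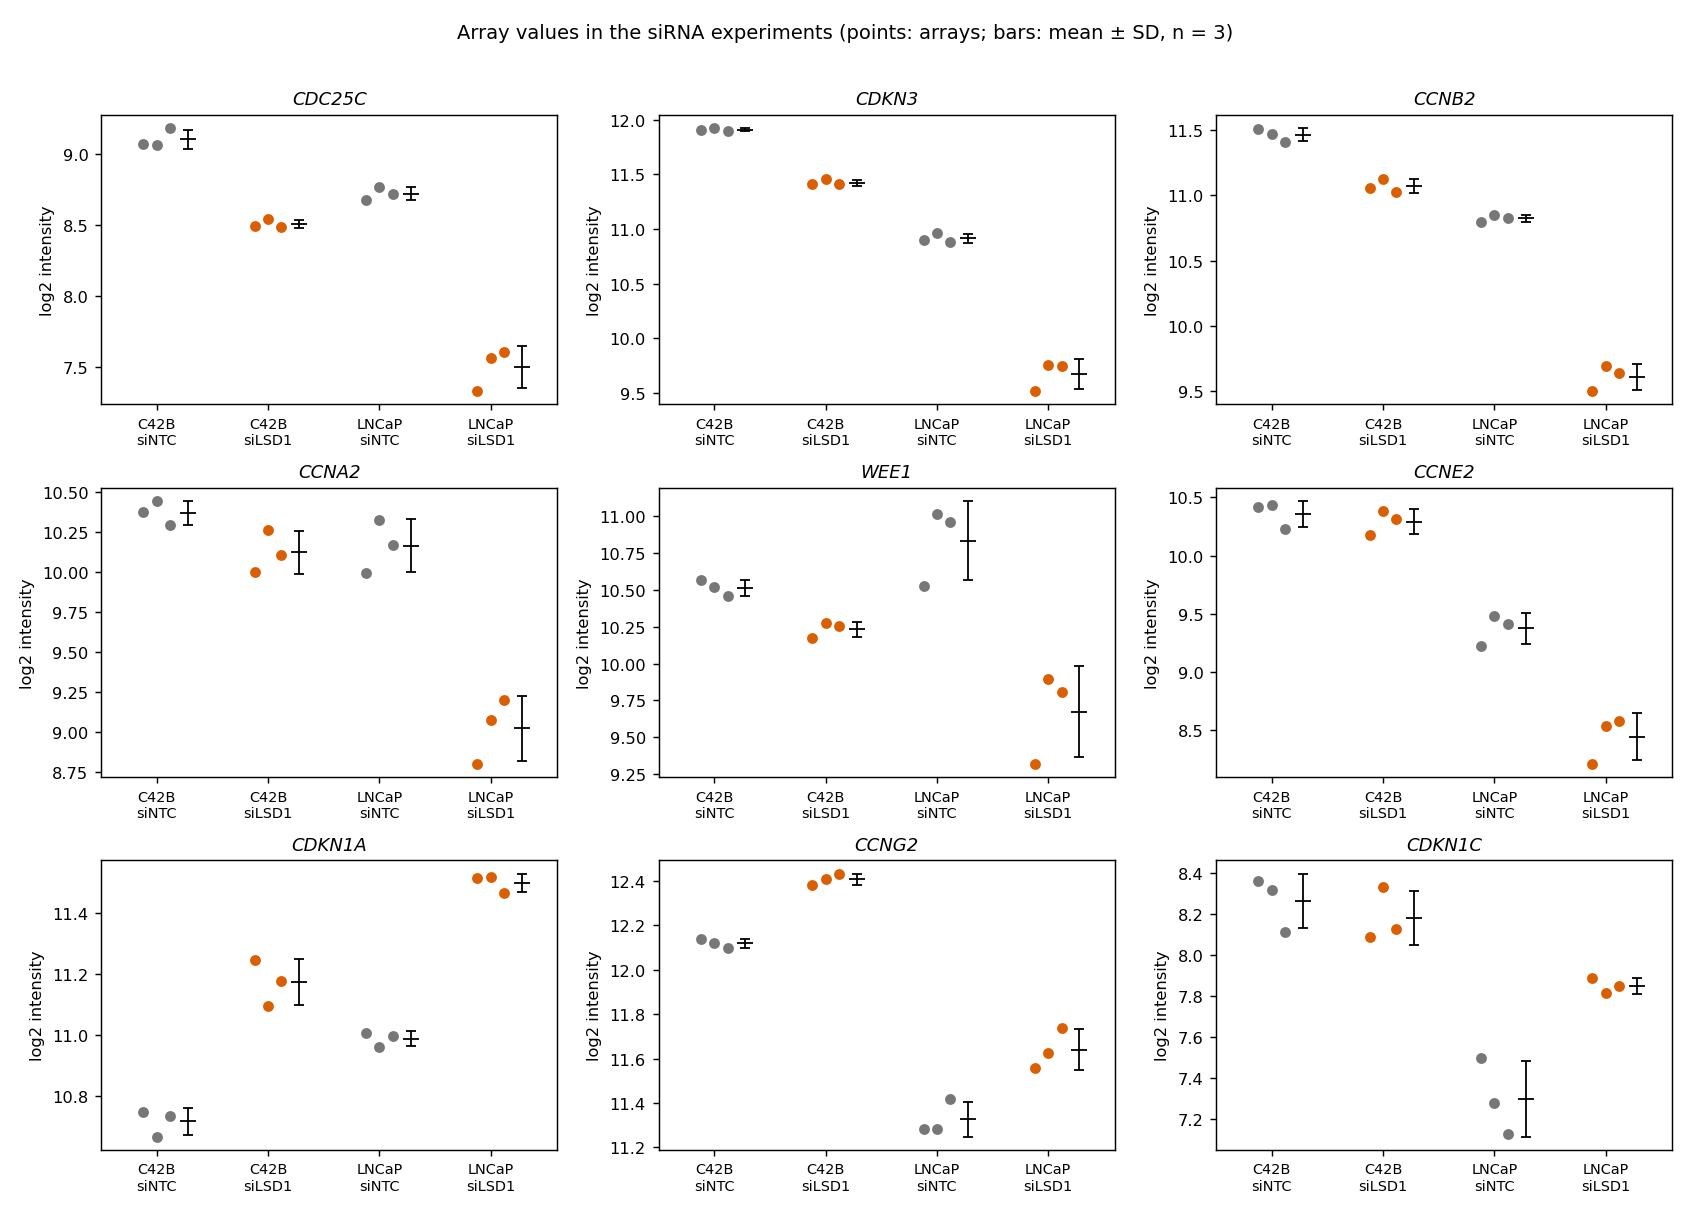
Log2 intensity of 9 genes in each siRNA array of C42B and LNCaP, siLSD1 beside siNTC, with the mean and SD of each group as bars (n = 3). CCNE2 and CDKN1C overlap between groups in C42B and separate in LNCaP, whereas CDKN1A and CCNG2 are higher with siLSD1 in both lines.

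The siLSD1 effect in C42B minus that in LNCaP, fitted over the 12 siRNA arrays, tests whether a member responded differently in the 2 experiments, and 17 of 35 passed (11.6% of all genes). A difference above 0 passed in 16 members (45.7%, against 5.56% of all genes) and 1 below 0 passed (2.86%, against 6.07%), with a median difference of 0.27 (−0.021 over all genes). Of the 35, 29 had a lower log2 fold change in LNCaP, a count for which the share over all genes was not taken. The 16 were all 4 phosphatases, 3 of 4 cyclins of S phase and mitosis, both CKS subunits, CDK1, CDK4, CCNE2, CCNH, CDKN2A, WEE1 and RBL1, and all of these but CCNH had log2 fold changes below 0 in both lines, farther from 0 in LNCaP. CCNH was higher in C42B (0.19) and did not pass in LNCaP (−0.045). Line, serum and experiment differ together here and cannot be told apart.

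CCNA2 had the largest difference, 0.89 ± 0.15, adjusted p = 0.0028, between −0.24 in C42B and −1.14 in LNCaP. In C42B its arrays read 10.00, 10.26 and 10.11 with siLSD1 and 10.37, 10.44 and 10.29 with siNTC, a narrow gap beside that in LNCaP. WEE1 followed at 0.88 ± 0.20, adjusted p = 0.015, with C42B arrays at 10.17, 10.27 and 10.25 against 10.56, 10.52 and 10.45. Both of its C42B groups were tight, unlike those in LNCaP. CCNE2, an E cyclin that activates CDK2 at the start of S phase, read 10.17, 10.39 and 10.31 against 10.42, 10.43 and 10.23 in C42B and 8.21, 8.54 and 8.58 against 9.23, 9.49 and 9.41 in LNCaP. The groups overlapped in C42B and were apart in LNCaP, where it fell by 0.93 ± 0.11 (adjusted p = 4.8e-04), and the difference was 0.86 ± 0.15, adjusted p = 0.0026.

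RBL1, the pocket protein made at the onset of S phase, read 6.88, 7.10 and 7.32 against 7.21, 7.34 and 7.20 in C42B and 6.02, 6.14 and 6.32 against 6.86, 7.43 and 7.14 in LNCaP. Its C42B groups overlapped, it fell in LNCaP (−0.98 ± 0.14, adjusted p = 0.0012), and the difference was 0.84 ± 0.19, adjusted p = 0.015. A second probe set of RBL1 fell in C42B as well (−0.64), and with the mean of its 4 sets the difference was 0.24 (adjusted p = 0.081). RBL1's promoter, shown above, holds a pair of E2F-like matches near the start. CCNB2 read 11.06, 11.13 and 11.03 against 11.51, 11.47 and 11.41 in C42B, apart but by less than in LNCaP, and its difference was 0.82 ± 0.083, adjusted p = 9.0e-05, or 0.39 with the mean of its probe sets. CDC25C's difference was 0.40 with that mean and 0.62 otherwise, and CDKN2A's did not pass with it (0.077, against 0.37).

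The other differences above 0 ran from 0.23 for CCNH to 0.81 for CCNB1. Of these, CDK4 did not pass without C42B siLSD1 replicate 2, C42B siNTC replicate 3 or any LNCaP array other than the replicates 1 of both groups (adjusted p 0.053 to 0.066), and CCNH passed only without C42B siNTC replicate 3 or LNCaP siNTC replicate 1 (otherwise 0.0503 to 0.098). CDKN1C alone went the other way (−0.63 ± 0.14, adjusted p = 0.010), higher in LNCaP and not in C42B. CDKN1A (−0.054, 95% interval −0.22 to 0.11), CCNG2 (−0.025, −0.21 to 0.16) and CCNF (0.025, −0.18 to 0.23) had differences near 0 that did not pass. Over the 35 genes the siLSD1 effects in both lines, which share no arrays, had a Pearson r of 0.78 and the same sign in 26 (74.3%), against an r of 0.58 and the same sign in 62.6% over all 19775 genes. Genes are not independent replicates, so no p is given.

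**Figure D3:**
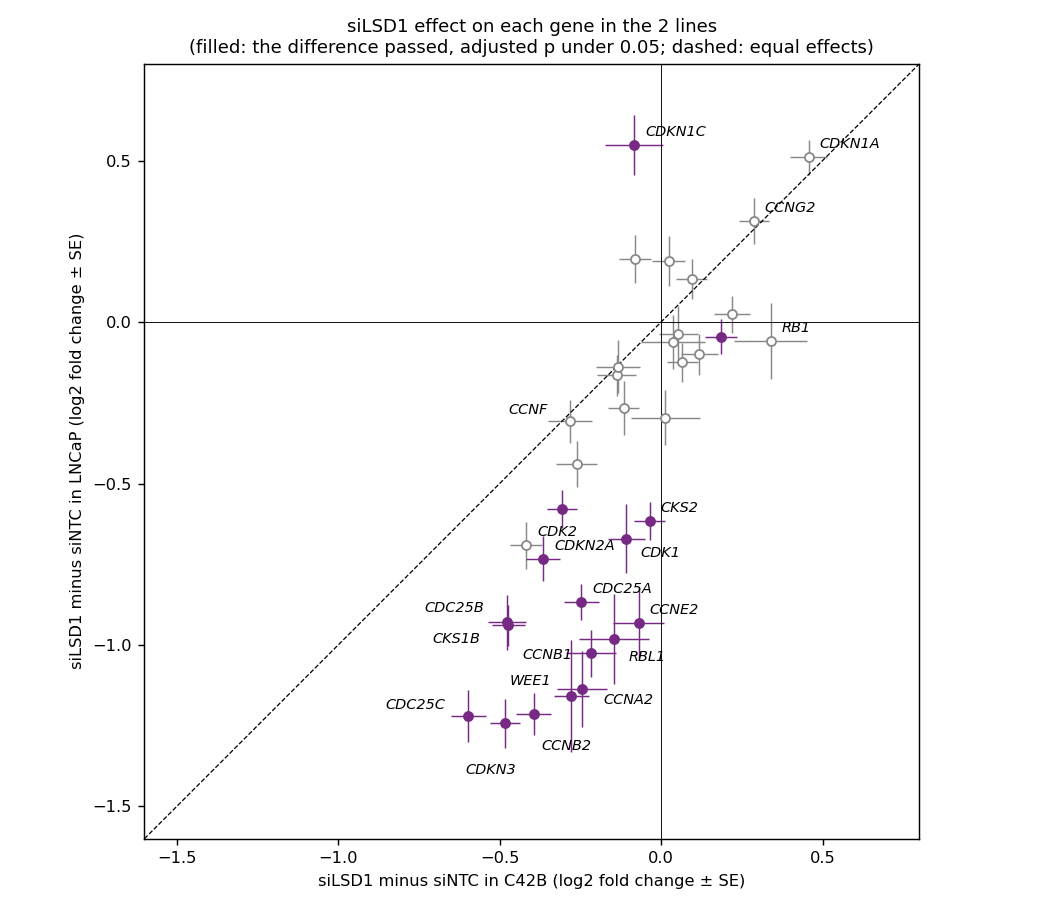
Log2 fold change ± SE with siLSD1 in C42B (horizontal) and LNCaP (vertical) for each of the 35 genes; filled points had a difference between lines that passed, and the dashed line marks equal effects. CCNA2, CCNB2, WEE1 and CDKN3 lie near −1.2 in LNCaP and between −0.5 and −0.2 in C42B, and CDKN1A and CCNG2 lie within 1 SE of the dashed line.

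DHT for 16 h in C42B addresses the response to androgen itself, in cells that had no siRNA and in which KDM1A itself was slightly higher (0.16 ± 0.043). The largest rise was that of CDK6 and the largest fall that of CCNG2, and of the 4 phosphatases and 4 cyclins of S phase and mitosis, all lower with siLSD1 in LNCaP, CCNA2 was lower, CDC25A higher and the other 6 did not pass. The 6 higher genes were CDK6, CDC25A, CDKN2D, CDKN1A, CDK2 and CCND3, and the 7 lower ones CCNG2, RBL2, RBL1, CCNH, CDK5, CCNA2 and WEE1.

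CDK6, a kinase partner of the D cyclins, read 8.57, 8.34, 8.43 and 8.42 with DHT and 6.88, 6.98, 6.71 and 7.18 with vehicle. The lowest DHT array was over 1 unit of log2 above the highest vehicle array, and CDK6 rose by 183.6% (log2 fold change 1.50 ± 0.094, limma adjusted p = 1.9e-06), or by 0.77 on the log2 scale with the mean of its 7 probe sets. CDC25A read 9.51, 9.60, 9.39 and 9.45 against 8.95, 9.01, 9.04 and 8.91. All DHT arrays were higher, with a log2 fold change of 0.51 ± 0.055, adjusted p = 7.5e-05. CDK2 read 10.76, 10.88, 10.77 and 10.83 against 10.56, 10.53, 10.57 and 10.49. It was higher in every DHT array (0.27 ± 0.044, adjusted p = 0.0011). CCND3, a D cyclin, rose by 0.23 ± 0.050 (adjusted p = 0.0067), whereas CCND1, the D cyclin of many epithelia, did not pass (0.031, adjusted p = 0.65).

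Among the inhibitors, CDKN1A read 10.45, 10.42, 10.37 and 10.28 with DHT and 10.04, 10.03, 10.07 and 10.11 with vehicle. Every DHT array was above the vehicle arrays, and the log2 fold change was 0.32 ± 0.047, adjusted p = 5.9e-04. CDKN2D, an INK4 inhibitor, read 6.62, 6.85, 6.80 and 6.58 against 6.49, 6.21, 6.58 and 6.22, near the bright limit. Its groups met but did not overlap, the log2 fold change was 0.34 ± 0.10, adjusted p = 0.027, and it did not pass without DHT replicate 2 or 3 or vehicle replicate 2 or 4 (adjusted p 0.069 to 0.074). CDKN1B, an inhibitor of CDK2 (−0.10, adjusted p = 0.30), did not pass.

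CCNG2 read 10.57, 10.67, 10.56 and 10.53 with DHT and 11.70, 11.73, 11.76 and 11.69 with vehicle. Both groups were tight and far apart, and CCNG2 fell by 54.6% (log2 fold change −1.14 ± 0.044, adjusted p = 9.0e-08). CCNH read 11.68, 11.74, 11.74 and 11.68 against 12.03, 12.03, 12.04 and 12.05. The vehicle arrays were almost level and all DHT arrays lay below them (−0.32 ± 0.037, adjusted p = 1.1e-04). CDK5, a CDK best known for its work in neurons, read 9.72, 9.73, 9.72 and 9.69 against 9.95, 9.95, 9.95 and 9.88. Vehicle replicate 4 was the lowest of its group and still above every DHT array (−0.21 ± 0.037, adjusted p = 0.0017).

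RBL2 read 10.94, 10.96, 10.84 and 11.12 with DHT and 11.27, 11.33, 11.26 and 11.47 with vehicle. Replicate 4 was the highest in both groups, there was no overlap, and the log2 fold change was −0.37 ± 0.069, adjusted p = 0.0026. RBL1 read 7.35, 7.26, 7.15 and 7.26 against 7.61, 7.47, 7.61 and 7.66. It was lower in all DHT arrays (−0.33 ± 0.057, adjusted p = 0.0016), and with the mean of its probe sets the change was −0.12 and did not pass (adjusted p = 0.11). CCNA2 (−0.21 ± 0.065, adjusted p = 0.036) and WEE1 (−0.15 ± 0.041, adjusted p = 0.021) were lower by small amounts. Neither passed after median centring (−0.14 and −0.080, adjusted p = 0.14 and 0.15) or with the mean of probe sets (−0.074 and −0.086). CCNA2 also lost its call without DHT replicate 1 or 2 or vehicle replicate 2, 3 or 4 (adjusted p 0.054 to 0.098), and WEE1 without DHT replicate 1 (0.059) or vehicle replicate 3 (0.070).

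**Figure D4:**
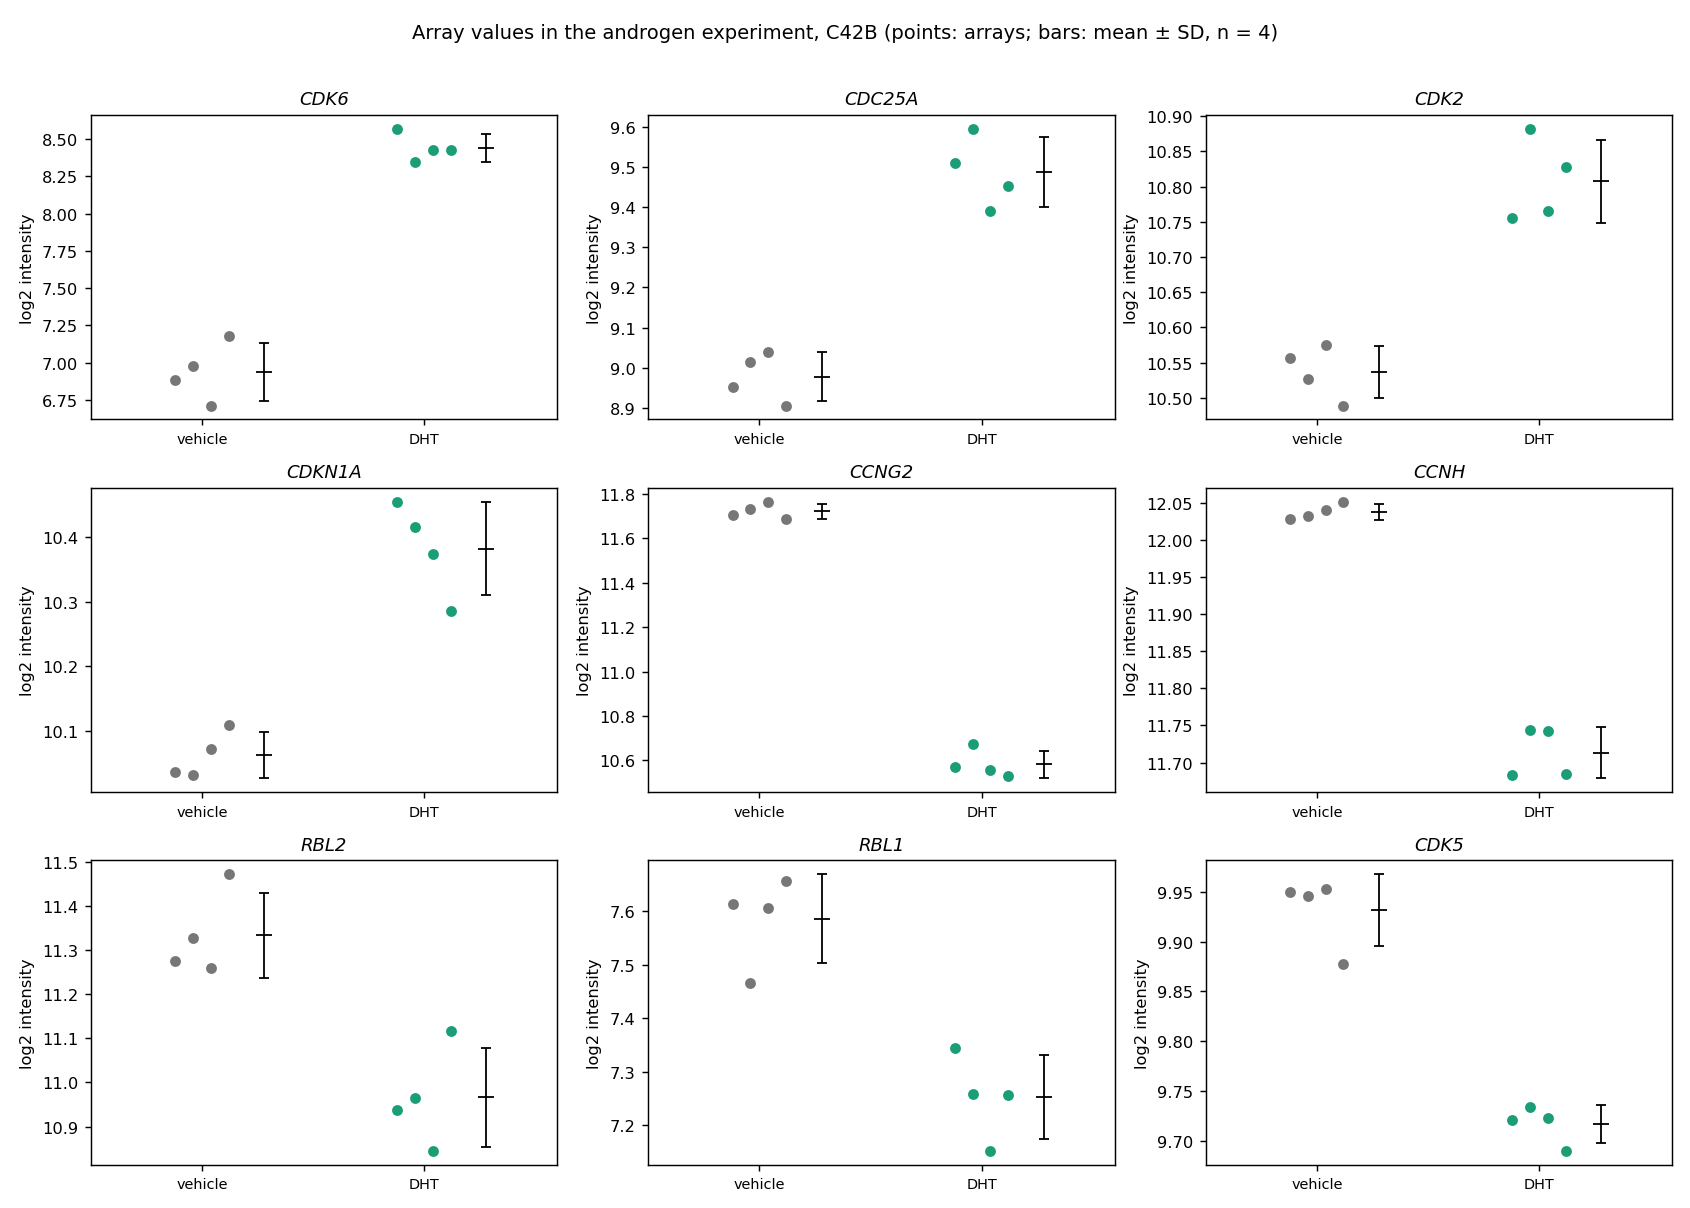
Log2 intensity of 9 genes in each array of C42B with DHT or vehicle, with the mean and SD of each group as bars (n = 4). CDK6 and CCNG2 show the widest gaps, and the arrays of the groups do not overlap for any of the 9.

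Across the 3 comparisons 28 members passed at least once (48.9% of all genes did) and 5 in all 3 (6.09% of all genes; CCNG2, CDK2, CDKN1A, CDC25A, WEE1). The C42B siRNA and DHT comparisons are on separate arrays. CCNG2, CCNH and RBL2 were higher with siLSD1 and lower with DHT in C42B, and CDK2 and CDC25A lower with siLSD1 and higher with DHT. Several of these siLSD1 calls depended on the setting. CCNH lost its call with any array left out, and RBL2 with any but siLSD1 replicate 1. With the mean of probe sets CCNG2, RBL2 and CDC25A did not pass with siLSD1 in C42B. CDKN1A was higher in all 3 comparisons and WEE1 lower in all 3. The siLSD1 and DHT effects in C42B had the same sign in 14 of 35 members, against 50.2% of all genes, with a Pearson r of −0.24 over the members and 0.055 over all genes. The 7 that passed nowhere were CCND1, CCND2 (dim in all 6 groups), CCNE1, CCNG1, CDK7, CDKN1B and RB1. In CCND1 the change was 0.12 with siLSD1 in C42B (95% interval −0.015 to 0.25) and −0.10 in LNCaP (−0.24 to 0.044). CDKN1B's were 0.038 (−0.19 to 0.27) and −0.062 (−0.25 to 0.13). CDK7, the catalytic partner of CCNH, changed by 0.095 (−0.017 to 0.21) and 0.13 (−0.0095 to 0.28).

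Of the 35 members 24 had more than 1 probe set, up to 7. Bright further probe sets of members that passed had the same sign as the brightest in 12 of 13 with siLSD1 in C42B, 23 of 23 in LNCaP and 13 of 16 with DHT, of which 7, 19 and 9 passed, and 0 passed in the opposite direction. In C42B bright further sets of CCNA2, CDK1, CDKN1C and RBL1 passed with siLSD1 where the brightest did not, as did sets of CCND1, CCNE2, CDK1 and CDKN2A with DHT, those of CCND1 (0.26), CCNE2 (0.21) and CDK1 (0.18 and 0.17) being higher. The second set of CCNA2 was −0.63 in C42B and −1.62 in LNCaP, and the other 3 sets of CDK1 were −0.42, −0.49 and −0.37 in C42B, the first 2 passing, and −0.87 to −1.0 in LNCaP. With the mean of all sets, CCNA2 (−0.44), CDK1 (−0.35), CDKN1C (−0.17) and RBL1 (−0.33) passed in C42B, and CCNG2 (0.17, adjusted p = 0.072), CDC25A (−0.032, adjusted p = 0.82) and RBL2 (0.099, adjusted p = 0.18) did not. The 7 sets of CDK6 ran from −0.019 to 1.57 with DHT, 5 of them higher. Of the 5 sets of CCNG2, 4 fell with DHT (−1.18 to −1.05) and 1 read 0.12. For CDKN2A, which encodes an INK4 inhibitor and the unrelated protein ARF from overlapping exons, the sets cannot be assigned to either product here.

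**Figure D5:**
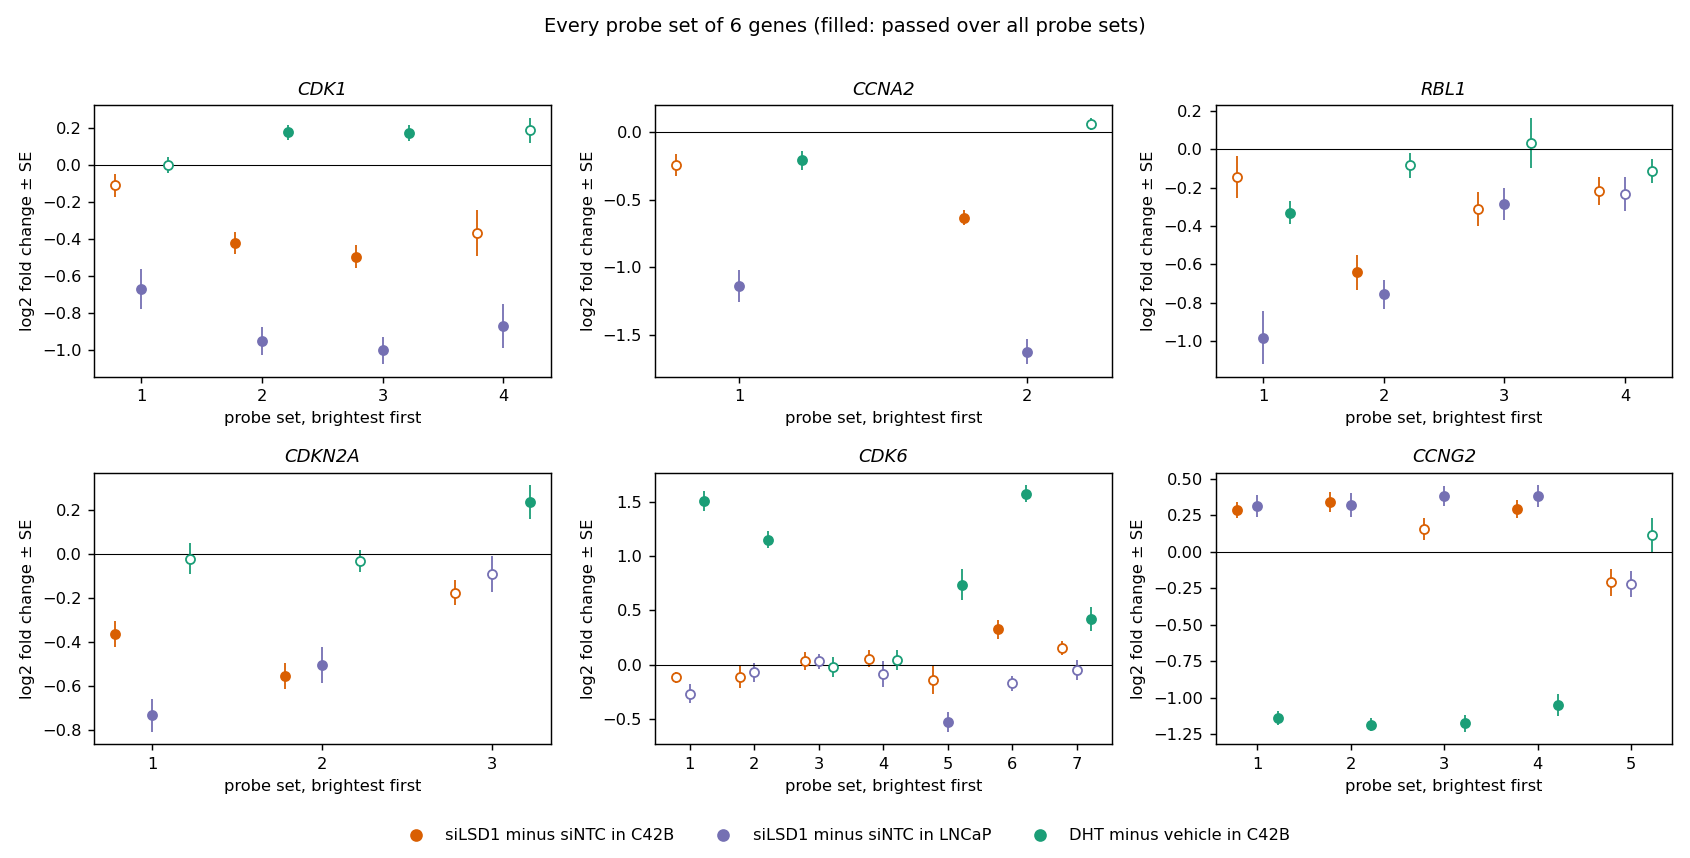
Log2 fold change ± SE of every probe set of CDK1, CCNA2, RBL1, CDKN2A, CDK6 and CCNG2 in the 3 comparisons, the brightest set first. Sets of CDK1 and CCNA2 beyond the brightest lie lower with siLSD1 in C42B, and those of CDK6 are spread widely with DHT.

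Other genes of the pathway were read from lists drawn up for this purpose. As a background for each list, 8.66% of the 19775 tested genes passed as higher in the C42B siRNA comparison, 13.4% in LNCaP and 13.4% with DHT. The shares passing as lower were 9.39%, 12.5% and 19.4%, in the same order. Whether a list departed from these shares was not tested. Of 10 proliferation markers, 9 were lower with siLSD1 in C42B and all 10 in LNCaP, with 0 higher (median log2 fold changes −0.47 and −1.16). In C42B their summed intensity ran from 16291 to 16893 in siLSD1 arrays and from 20310 to 21431 in siNTC arrays, and in LNCaP from 8517 to 8874 and from 17511 to 18010. TPX2, a spindle assembly factor, fell by 0.62 ± 0.048 in C42B and fell by 1.42 ± 0.062 in LNCaP. With DHT, 1 was higher and 3 lower, and the median log2 fold change was 0.0012. The sum, in which bright genes weigh most, was 20496 to 21007 against 21838 to 22714 with vehicle. Among the markers MCM2, a subunit of the replicative helicase, fell (−0.19 ± 0.062), though its arrays overlapped between groups. PCNA also fell (−0.16 ± 0.041), and MKI67, a nuclear protein of cycling cells, rose (0.16 ± 0.047). How far the share of cycling cells set the values of the cyclins and CDKs was not tested.

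Of 18 E2F, DP and DREAM factors, 0 were higher and 9 lower in C42B, 1 and 11 in LNCaP, and 4 and 2 with DHT. E2F8, a repressor made in S phase, fell by 1.37 ± 0.081 in LNCaP. TFDP1, a partner of E2F proteins, fell by 0.49 ± 0.046 in C42B. E2F7 changed by more than these, with −1.84 ± 0.14 in LNCaP and −0.79 ± 0.072 in C42B. With DHT LIN52, a core subunit of DREAM, rose (0.52 ± 0.051), whereas LIN9, of the same list, fell (−0.29 ± 0.074). Of 21 parts of the ubiquitin ligases that degrade cyclins and CDK inhibitors, 0 were higher and 9 lower in C42B, 0 and 10 in LNCaP, and 5 and 3 with DHT. CDC20, the mitotic activator of the anaphase-promoting complex, fell by 0.56 ± 0.051 in C42B and fell by 1.62 ± 0.067 in LNCaP, and UBE2C, its ubiquitin-conjugating enzyme, fell by 0.35 ± 0.052 in C42B and fell by 1.20 ± 0.080 in LNCaP. Of 28 transcriptional and other CDKs and cyclins, which act largely outside the cell cycle, 4 were higher and 3 lower in C42B, 3 and 4 in LNCaP, and 6 and 6 with DHT, with medians of 0.013, −0.015 and −0.025. CDK8, a kinase of the Mediator complex, fell with DHT (−1.50 ± 0.054) and rose with siLSD1 in LNCaP (0.65 ± 0.070). CDK19, of the same list, changed by more with siLSD1 in LNCaP and fell there (−1.90 ± 0.059), as it did in C42B (−0.44 ± 0.048).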

How the data were processed

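RNA was hybridised to 20 Affymetrix arrays of 54675 probe sets. The values the authors deposited are intensities per probe set on a linear scale (4.34 to 36333), and log2 was taken of each. The submitters' processing notes name RMA and affy, with versions not given in the sources used. A pair of labelling kits is named in the labels, for 2 µg or 200 ng of RNA, with no word on which samples had which. In the annotation, 62 probe sets are controls, 41091 name 1 gene, 1801 several and 11721 none. A gene was read from its brightest 1-gene probe set over all arrays, with no filter on dim ones. A group mean under 6 was called dim: no fold is given where both groups were dim, and a bound counted from 6 where 1 was.

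Limma 3.58.1 (R 4.3.3) was fitted to each comparison's own arrays, and to the 12 siRNA arrays for the line difference, with lmFit, then eBayes, two-sided and without covariates. P-values were adjusted by Benjamini-Hochberg over 19775 genes, and the fit was tested on simulated data. Tables, motif searches and figures were made in Python 3.11.15 (pandas 2.3.3, numpy 2.4.6, matplotlib 3.10.9). Array values were given for the 5 largest rises and falls per comparison and the 5 largest differences between lines, and at most 3 passing genes per list and comparison could be named. The members and lists were chosen with earlier results of these data known. Alternatives were leaving out each array, 1 fit of all 20 arrays, median centring or quantile normalization, the mean of a gene's probe sets, testing all probe sets or bright genes alone, trend and robust eBayes, and the replicate number as a block.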

Additional observations from a re-analysis of the deposited data

Results flagged for a closer look

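In 4 of 70 gene and group pairs of the androgen experiment 1 array stood apart from the other 3 by Dixon's criterion for 4 values at the 95% level, which chance gives in about 1 of 20. CDK5 read 9.88 in vehicle replicate 4, against 9.95 in each of the others. CDKN1C read 8.06 in DHT replicate 1, against 8.16 to 8.18. CDKN2B read 5.99 in DHT replicate 3, against 6.28 to 6.29. RB1 read 10.60 in DHT replicate 4, against 10.28 to 10.32, and without that array its change was −0.17 and passed (adjusted p = 0.046).

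The siLSD1 effect differed between C42B and LNCaP for 17 members by limma's test of the difference, which 11.6% of all genes passed. On the log2 scale, C42B minus LNCaP, it was 0.89 for CCNA2, 0.88 for WEE1, 0.86 for CCNE2, 0.84 for RBL1, 0.82 for CCNB2, 0.81 for CCNB1 and 0.76 for CDKN3. It was 0.62 for CDC25C, 0.62 for CDC25A, 0.58 for CKS2, 0.56 for CDK1, 0.47 for CKS1B, 0.45 for CDC25B, 0.37 for CDKN2A, 0.27 for CDK4 and 0.23 for CCNH. For CDKN1C it was −0.63. The differences of RBL1 and CDKN2A did not pass with the mean of probe sets, and those of CDK4 and CCNH did not pass with the replicate block.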

How the results depend on the processing

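Only leaving out an array moved a total count of calls, both directions together, by more than 1.5 times. By direction, median centring moved the genes higher with DHT from 2643 to 4530, and the members higher in C42B went from 4 to 2 with the mean of probe sets, with every probe set tested and with the replicate block. Leaving out each array in turn gave 11 to 16 members passed in C42B, 20 to 23 in LNCaP, 11 to 15 with DHT and 15 to 20 for the difference. Over all genes the ranges were 1907 to 3962 (3569 with all arrays), 3843 to 5644, 5515 to 6102 and 1570 to 3060. In C42B the count was 2111 without siLSD1 replicate 2, 1907 without siLSD1 replicate 3, 2341 without siNTC replicate 2 and 2326 without siNTC replicate 3. With the replicate block 2788, 4928, 5984 and 2009 genes and 13, 22, 12 and 15 members passed. The replicate number alone linked the arrays. Same-numbered arrays of treated and control groups correlated at −0.096 to 0.20 around their group means, and differently numbered ones at −0.24 to 0.19. Under the block CCNH, RBL2 and PKMYT1 in C42B, CDK6 in LNCaP, WEE1 with DHT, and CCNH and CDK4 for the difference did not pass (adjusted p 0.052 to 0.091). Turned signs are listed where either fit passed or the shift reached the SD within groups, and smaller turns are left out. With the mean of probe sets these were CDK6 in C42B (0.028), CDKN2B (0.14) and RBL2 (−0.080) in LNCaP, and the difference of CDKN2B (−0.17). With DHT they were CCNB2 (0.064), CCND2 (0.035) and RB1 (0.060) with that mean, and CDKN3 (0.031) and CDC25B (0.043) with median centring. CDKN2B in both lines and CCND2 were dim in both groups, so these fitted values are not read as folds. The cause was not tested. With all 20 arrays in 1 fit, WEE1 in C42B (adjusted p = 0.11) and CCNA2 and WEE1 with DHT did not pass. The number of arrays limits the precision, and dim probe sets give only bounds.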
